A study of Mus musculus with 6 samples.

Results

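Keratins are the intermediate filament proteins of epithelial cells, and 47 protein-coding rows of the 24959 genes in the deposited table carry a keratin symbol made of Krt and a number with nothing after it. These 47 genes are described here across 6 RNA-seq libraries labelled as mouse dental epithelial cells at postnatal day 0. The groups are 3 controls, labelled wild type, and 3 libraries labelled as a knockout of Pkm, with cKO (conditional knockout) in their titles. Pkm encodes the M-type pyruvate kinases of glycolysis. The titles call the libraries biological replicates. Neither the Cre driver and deleted exon nor the strain and any pooling of animals is given in the labels, so p-values measure the spread between these libraries only. Reads were counted per gene, 32 of the 47 keratins had enough reads to be tested by edgeR's default filter, and levels are given as CPM (counts relative to the normalized total of each library).

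Keratins form filaments only as pairs of an acidic type I and a basic type II chain, and the chains made tell where an epithelial cell sits. Basal cells of stratified epithelia make Krt5 and Krt14. Cells of single-layered and glandular epithelia make Krt8, Krt18 and Krt7. Cells that leave the basal layer switch to Krt4 and Krt13 in the lining mucosa of the mouth and oesophagus, and to Krt1 and Krt10 in the epidermis and in the keratinised parts of the oral mucosa. The enamel organ of the tooth grows from the oral epithelium, keeps Krt5, Krt14 and Krt17, and does not stratify like its parent layer. The genes were grouped by these textbook places of expression. Of the 47 genes, 24 are of type I and 23 of type II. With few exceptions, such as Krt18, which lies beside Krt8 among the type II genes, each type sits in a cluster of its own.

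The labels were checked first. Pkm had 1281, 1185 and 1049 CPM in control and 309, 395 and 350 in cKO libraries (log2 fold change -1.74, SE 0.159, adjusted p 0.0109 by edgeR). Total counts ranged from 30588350 to 39415700. The summed CPM of 8 general epithelial markers ran from 1538 to 1766 in the control group and from 1129 to 1322 in the cKO group, and Cdh1, the E-cadherin gene, was the one member whose groups did not overlap. The other 7 markers summed to 486 to 591 and 435 to 670 CPM, and the median log2 fold change of all 8 was -0.07. Transcripts of dental mesenchyme and fibroblasts were also abundant, with 14968 to 23320 and 13552 to 29950 CPM over 12 genes, most of it Col1a1. The other 11 genes summed to 1229 to 1316 CPM in the control group and to 2504, 1679 and 4454 CPM in cKO replicates 1 to 3. Of the 12 genes, 11 had log2 fold changes above 0 (median 0.95, and 0.69 without cKO replicate 3). In 7 of the 12 every cKO library was higher than any control, beside 11.2% of all tested genes. The part of this in the keratin values was not tested. The cKO library labelled replicate 3 stood apart. It correlated with the other 2 cKO libraries at r = 0.944 and 0.949 across the log2 CPM of tested genes, against 0.966 between those 2. It held 2892 CPM of 6 skeletal muscle genes, where cKO replicates 1 and 2 held 73.0 and 15.4 CPM and no control more than 4.49 CPM. Log2 fold changes that rest on this library are therefore mostly given with and without it.

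Of the 32 tested keratins, 0 passed edgeR's quasi-likelihood test at an adjusted p under 0.05, where 0.552% of all 15930 tested genes did (0.345% higher and 0.207% lower). At an unadjusted p under 0.05 there were 14 keratins, against 17.5% of all tested genes. DESeq2 called 7 of the 32, beside 7.02% of all tested genes, with no adjusted p for 9, and limma-voom called 0. Without cKO replicate 1, 2 or 3 edgeR called 5, 1 and 1 keratins, beside 3.92%, 1.13% and 0.77% of all tested genes. The groups did not overlap for 13 keratins, 8 higher and 5 lower in the cKO libraries, beside 11.2% and 12.2% of all tested genes. A gene with almost no reads in the controls can pass the filter through its cKO libraries, so these shares are descriptions. The basal and simple keratins stood mostly a little lower in the cKO libraries, while the 6 tested suprabasal keratins all had log2 fold changes above 0, from 0.97 to 10.03. The median log2 fold change of the 8 tested basal and simple keratins was -0.32, that of the 6 suprabasal keratins 4.40, and that of all tested genes 0.0068. Without cKO replicate 3 the suprabasal median was 1.35.

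**Figure D1:**
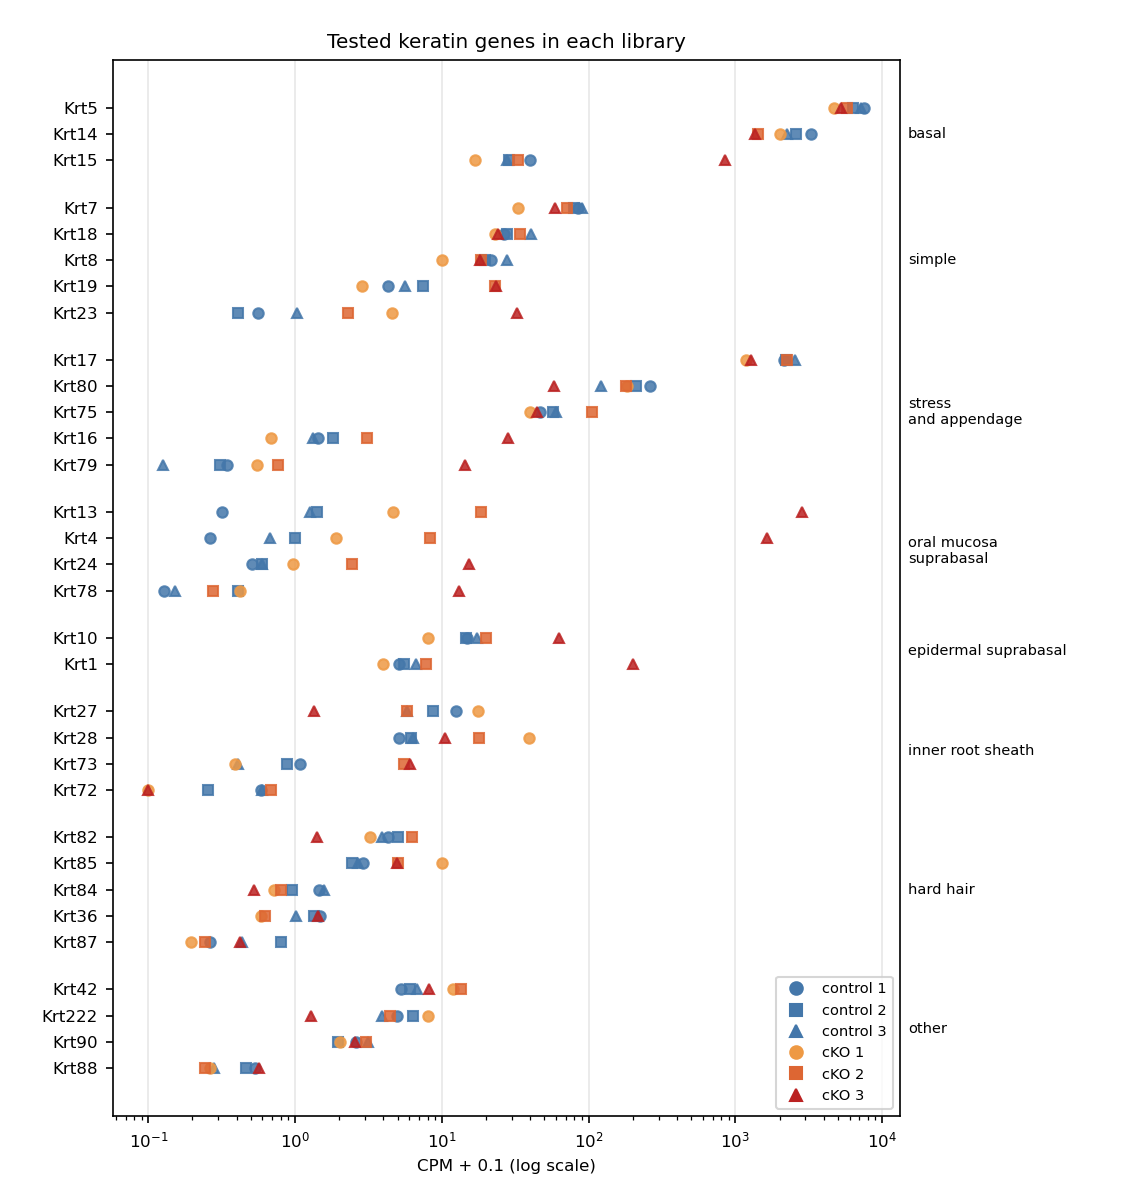
CPM plus 0.1 on a log scale (horizontal) for each of the 32 tested keratins, one symbol per library, ordered by place of expression. Control libraries are blue and cKO libraries orange to red. The red triangle of cKO replicate 3 lies far to the right for Krt13, Krt4, Krt1 and Krt15, and within or near the other libraries for Krt5, Krt14 and Krt17.

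Krt5, the type II keratin of the basal layer, was the most abundant of the 46 keratins with a known transcript length, in CPM per kilobase, in all 6 libraries. It had 7552, 6358 and 7144 CPM in control and 4688, 5742 and 5219 in cKO libraries. Every cKO library lay below every control (log2 fold change -0.43, SE 0.151, adjusted p 0.189 by edgeR). Its partner Krt14 had 3281, 2596 and 2243 against 2002, 1423 and 1362 CPM, again without overlap (log2 fold change -0.76, SE 0.202, adjusted p 0.108). Krt14 had the lowest p of the basal keratins and was called by DESeq2 (adjusted p 0.0205). Of the 50-base words in their transcripts, 12.2% for Krt5 and 13.9% for Krt14 also occur in transcripts of other genes. For Krt5 these include Krt6a and Gm44323, which overlaps Krt5 on the opposite strand, and for Krt14 they are Krt16 and Krt17. Krt14 was also called by edgeR without cKO replicate 1 (log2 fold change -0.96, adjusted p 0.0349). Without cKO replicate 3 its log2 fold change was -0.65 and that of Krt5 -0.42. In bulk tissue fewer epithelial cells and less keratin RNA per cell cannot be told apart. Set against the summed general epithelial markers, Krt5 had a ratio of 4.13 to 4.30 in controls and of 4.15 to 4.41 in cKO libraries, which overlap. This overlap rests on Cdh1, which makes up most of the marker sum. Against the other 7 markers Krt5 had ratios of 15.6, 12.2 and 12.1 in controls and 10.8, 8.57 and 9.23 in cKO libraries, without overlap. The ratio of Krt14 to all 8 markers was 1.86, 1.69 and 1.35 in controls and 1.77, 1.08 and 1.15 in cKO libraries, so these groups overlapped, as they did without Cdh1.

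The third basal keratin, Krt15, differed from this pair. It had 40.1, 28.5 and 27.9 CPM in control and 16.6, 32.9 and 850 in cKO replicates 1 to 3. Replicates 1 and 2 lay below or within the controls, and replicate 3 was 21.2 times higher than any other library. The log2 fold change of 3.22 (SE 1.77, adjusted p 0.443) became -0.37 without that library. Per kilobase, the ratio of Krt15 to Krt14 was 0.0109 to 0.0124 in controls, 0.00827 and 0.0230 in cKO replicates 1 and 2, and 0.621 in cKO replicate 3. Krt15 is a basal keratin of oral mucosa, oesophagus and hair follicle.

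Simple keratins were low beside the basal pair. Krt7, found in ducts and glands, had 84.7, 79.4 and 89.6 CPM in control and 33.1, 71.5 and 58.9 in cKO libraries (log2 fold change -0.63, SE 0.247, adjusted p 0.232). Krt8 had 21.6, 19.6 and 27.6 against 9.98, 18.3 and 18.1 CPM (log2 fold change -0.57, SE 0.265, adjusted p 0.304). For both genes the groups did not overlap and cKO replicate 1 was lowest. Krt18, the partner of Krt8, overlapped, with 26.5, 27.8 and 40.1 CPM against 23.1, 34.2 and 24.1 CPM. The pair ratio of Krt8 to Krt18 per kilobase was 0.504 to 0.599 in controls and 0.318, 0.392 and 0.552 in cKO libraries. Reads of Krt8 are uncertain, since 29.7% of its transcripts' 50-base words also occur in transcripts of other genes, a Krt8 pseudogene among them.

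Krt19 and Krt23 departed from the other simple keratins. Krt19, a short keratin made by simple epithelia and by basal cells of oral mucosa, had 4.22, 7.33 and 5.55 CPM in control and 2.75, 22.8 and 23.3 in cKO libraries. Thus 2 of the 3 cKO libraries were at least 3.11 times above the highest control and the first was below the lowest. Its log2 fold change was 1.51 (SE 0.746, adjusted p 0.360), and 2.01 without cKO replicate 1 (adjusted p 0.0134). Krt23, a type I keratin, had 0.463, 0.311 and 0.934 CPM in controls against 4.46, 2.21 and 32.7 CPM. All 3 cKO libraries lay above the controls (log2 fold change 4.52, SE 1.25, adjusted p 0.166), and DESeq2 called it (adjusted p 0.00351). Without cKO replicate 3 the log2 fold change of Krt23 was 2.56 (SE 0.549, adjusted p 0.0680). Krt20, a keratin of gut and Merkel cells, never exceeded 6 reads and was not tested.

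The oral mucosa pair showed the widest range of all keratins. Krt13, the type I chain of the pair, had 0.218, 1.32 and 1.17 CPM in control and 4.55, 18.3 and 2831 in cKO replicates 1 to 3. Krt4, its type II partner, had 0.163, 0.906 and 0.571 CPM in control and 1.81, 8.17 and 1649 in cKO libraries. All 3 cKO libraries exceeded all controls in both genes, in the same order, and replicate 3 exceeded the next library 155-fold and 202-fold. In reads, Krt13 had 8, 51 and 45 in controls and 141, 629 and 114010 in cKO libraries, so the lower libraries rest on few reads. In cKO replicate 3 Krt13 ranked 13 among all genes by CPM and took 0.292% of all reads (95% Wilson interval 0.290% to 0.293%, counting error only). In the controls it ranked between 13167 and 15760.

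The fitted changes of this pair had wide errors. The log2 fold change was 10.03 (SE 3.55, adjusted p 0.275) for Krt13 and 9.96 (SE 3.67, adjusted p 0.286) for Krt4. Without cKO replicate 3 it was 3.65 (SE 0.764, adjusted p 0.0820) and 3.18 (SE 0.747, adjusted p 0.0905). DESeq2 gave no adjusted p for either gene. The 2 chains kept a like proportion to each other despite the range. The ratio of Krt4 to Krt13 per kilobase was 0.417 to 0.640 in controls and 0.339, 0.381 and 0.497 in cKO libraries. Against the basal type I chain, the ratio of Krt13 to Krt14 per kilobase was at most 0.000502 in controls, 0.00220 and 0.0124 in cKO replicates 1 and 2, and 2.01 in cKO replicate 3. In that library alone Krt13 transcripts outnumbered those of Krt14.

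The other oral keratins followed at lower levels. Krt24, a type I keratin, had 0.408, 0.492 and 0.493 CPM in control and 0.872, 2.33 and 15.2 in cKO libraries. The groups did not overlap (log2 fold change 3.72, SE 1.06, adjusted p 0.153), and DESeq2 called the gene (adjusted p 0.000123). Its log2 fold change was 1.78 without cKO replicate 3 (adjusted p 0.151) and 4.23 without cKO replicate 1, when edgeR called it (adjusted p 0.0265). Krt78 had 0.027, 0.311 and 0.052 against 0.323, 0.174 and 13.1 CPM, so that cKO replicate 3 alone stood out (log2 fold change 5.08, SE 2.10, adjusted p 0.303, and 0.91 without that library). Krt76, a keratin of the hard palate, had 9 reads in cKO replicate 3, at most 2 elsewhere, and was not tested.

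Sequences upstream of transcription starts are shown for Krt13, Krt24 and Krt78, the tested oral keratins present in the RefSeq promoter table, and for the basal pair, because the former were high together in cKO replicate 3 while the latter were not. Each is the 150 bases before a start in RefSeq's GRCm38.p6, on the minus strand, and capitals mark matches to 3 short motifs on either strand.
Krt13, chr11:100121567-100121716: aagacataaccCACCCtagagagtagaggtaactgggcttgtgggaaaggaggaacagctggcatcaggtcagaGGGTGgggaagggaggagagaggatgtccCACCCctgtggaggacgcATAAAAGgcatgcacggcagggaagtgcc
Krt24, chr11:99285263-99285412: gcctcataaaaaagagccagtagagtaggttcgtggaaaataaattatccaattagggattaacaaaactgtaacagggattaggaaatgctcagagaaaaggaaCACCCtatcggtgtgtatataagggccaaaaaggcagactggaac
Krt78, chr15:101954288-101954437: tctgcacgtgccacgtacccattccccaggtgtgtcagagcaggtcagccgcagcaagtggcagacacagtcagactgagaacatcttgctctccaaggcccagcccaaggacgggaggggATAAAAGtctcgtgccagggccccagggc
Krt5, chr15:101712906-101713055: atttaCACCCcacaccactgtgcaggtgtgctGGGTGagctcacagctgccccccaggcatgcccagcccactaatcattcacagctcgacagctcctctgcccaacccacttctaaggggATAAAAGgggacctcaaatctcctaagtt
Krt14, chr11:100206031-100206180: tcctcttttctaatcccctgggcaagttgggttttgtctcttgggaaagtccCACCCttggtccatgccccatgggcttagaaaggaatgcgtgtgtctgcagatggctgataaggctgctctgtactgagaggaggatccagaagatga
The motifs were CACCC, bound by Sp and KLF factors, the AP-1 motif TGANTCA, and ATAAAAG, which resembles a TATA box and was added after the sequences were seen. ATAAAAG begins 29 bases before the start in Krt13, Krt78 and Krt5. It occurs in 3.01% of 32851 such windows of all genes and in 10 of 34 windows of 33 keratins. As it was picked after keratin sequences were seen, that share is a description only. CACCC occurs 3 times for Krt13, 2 times for Krt5, and once each for Krt24 and Krt14. It occurs in 37.4% of all windows and in 20 of the 34 keratin windows. None of the 5 windows shown holds TGANTCA, which 4.24% of all windows do. A second RefSeq start of Krt13 holds it once, the only 1 of the 34 keratin windows to do so.

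Among the epidermal suprabasal keratins, Krt1 had 4.98, 5.39 and 6.62 CPM in control and 3.88, 7.73 and 201 in cKO libraries. Its partner Krt10 had 14.8, 14.6 and 17.2 against 7.95, 20.1 and 63.2 CPM. For both, cKO replicate 1 was lowest, replicate 2 just above the controls and replicate 3 highest. The log2 fold changes were 3.65 (SE 1.80, adjusted p 0.394) and 0.97 (SE 0.729, adjusted p 0.549), and without cKO replicate 3 they were 0.04 and -0.14. The pair was less evenly matched than Krt4 and Krt13, with a ratio of Krt1 to Krt10 per kilobase of 0.161 to 0.234 in 5 libraries and 1.52 in cKO replicate 3. Krt9, the keratin of palm and sole skin, had 84 reads in cKO replicate 3 and at most 8 elsewhere. Krt2 and Krt77, of upper epidermis and sweat glands, had at most 1 and 10 reads in any library.

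**Figure D2:**
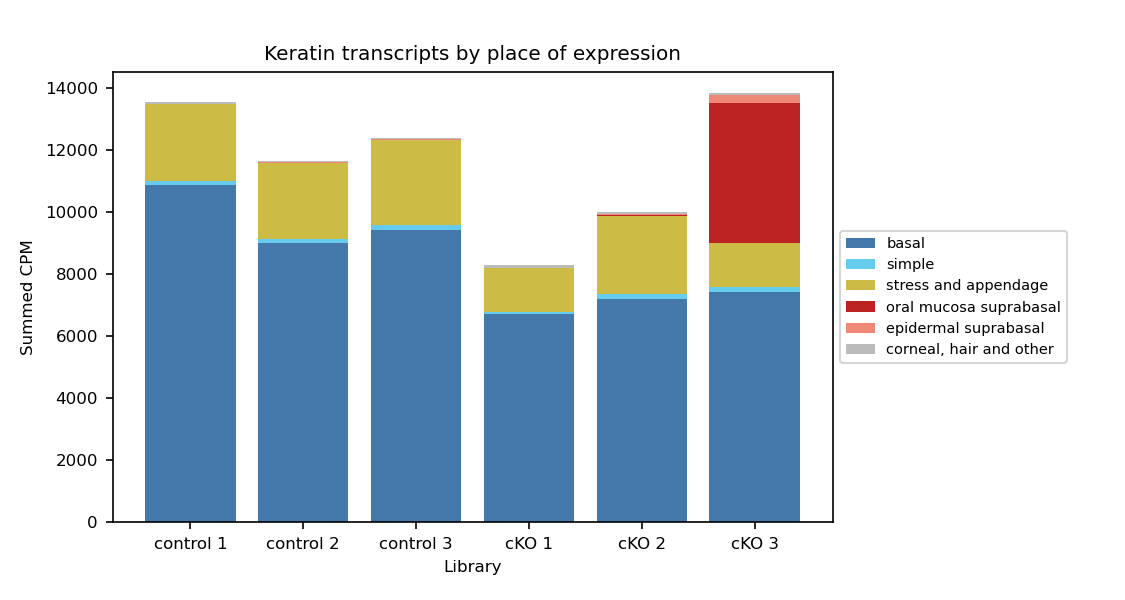
Stacked bars of summed CPM (vertical, from 0) of all 47 keratins by place of expression, one bar per library. Oral mucosa keratins reach 4509 CPM in cKO replicate 3 and at most 29.0 CPM in the other 5 libraries, while the sum of all keratins is 8296 to 13822 CPM.

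Summed by place, basal and simple keratins made up 77.4% to 81.4% of keratin reads in the controls and 81.7%, 73.5% and 54.9% in the cKO libraries. Oral and epidermal suprabasal keratins made up 0.153% to 0.213% in the controls. They made up 0.239% and 0.572% in cKO replicates 1 and 2, and 34.5% in replicate 3 (95% Wilson interval 34.4% to 34.7%, counting error only). The suprabasal sum was 20.7, 23.3 and 26.3 CPM in control and 19.8, 57.1 and 4775 in cKO libraries. The basal sum was 10874, 8983 and 9415 CPM against 6707, 7197 and 7431 CPM. The basal sum of cKO replicate 3 includes its 850 CPM of Krt15, and Krt5 plus Krt14 summed to 6690, 7164 and 6581 CPM in cKO replicates 1 to 3, lowest in the third. Its keratin total of 13822 CPM lay above the 11654 to 13532 CPM of the controls, which in turn lay above the 8296 and 9992 CPM of cKO replicates 1 and 2.

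Keratins of wounds, hair companion layer and appendages moved in differing directions between libraries. Krt17, a keratin of epithelial appendages, had 2150, 2203 and 2550 CPM in control and 1179, 2235 and 1271 in cKO libraries. Replicate 2 lay among the controls (log2 fold change -0.56, SE 0.237, adjusted p 0.265), and without it edgeR called Krt17 lower (log2 fold change -0.90, adjusted p 0.0489). Krt75, made by the hair companion layer and the enamel organ, had 46.3, 57.3 and 60.3 against 39.7, 105 and 44.5 CPM, and its direction turned without cKO replicate 2. Krt80, a widely expressed type II keratin, ranged from 121 to 260 CPM in controls and from 57.9 to 182 CPM in cKO libraries, with replicate 3 lowest. Krt16, induced with wounding, had 1.33, 1.71 and 1.22 against 0.581, 2.99 and 28.3 CPM. Its counts are uncertain, since 37.6% of its 50-base words are shared, mostly with a pseudogene and with Krt14. Krt79, of sebaceous duct and hair canal, had 0.245, 0.207 and 0.026 against 0.452, 0.668 and 14.4 CPM (log2 fold change 5.00, SE 1.73, adjusted p 0.232), and its log2 fold change was 1.80 without cKO replicate 3. That of Krt16 was 2.90 (SE 1.41, adjusted p 0.370) and 0.34 without cKO replicate 3.

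Keratins known from the hair follicle were low but readable. Krt28, a type I keratin of the inner root sheath, had 5.04, 6.03 and 6.28 CPM in control and 38.9, 17.8 and 10.4 in cKO libraries. All 3 cKO libraries lay above the controls, with replicate 1 highest and replicate 3 lowest of the 3. Krt28 had the lowest p of all keratins (log2 fold change 1.95, SE 0.440, adjusted p 0.0889). It was called by DESeq2 (adjusted p 0.000150) and by edgeR without cKO replicate 3 (log2 fold change 2.31, adjusted p 0.0309) or without cKO replicate 1 (1.28, adjusted p 0.0470). Krt85, a type II keratin of hair cortex and nail, had 2.80, 2.36 and 2.59 against 9.85, 4.94 and 4.82 CPM, in the same order of cKO libraries (log2 fold change 1.34, SE 0.365, adjusted p 0.114), and DESeq2 called it (adjusted p 0.00855).

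The other inner root sheath keratins differed from Krt28 and from each other. Krt27, which lies in the same cluster as Krt28, had 12.3, 8.65 and 5.73 CPM in control and 17.4, 5.70 and 1.24 in cKO libraries, so that the cKO libraries lay on both sides of the controls (log2 fold change -0.14, SE 0.875). Of its 50-base words, 11.1% are shared with Krt25 and Krt28. Krt73 had 0.980, 0.777 and 0.311 against 0.291, 5.46 and 6.01 CPM (log2 fold change 2.51, SE 0.969, adjusted p 0.246), and edgeR called it without cKO replicate 1 (log2 fold change 3.05, adjusted p 0.0203). Krt72 had 18, 6 and 19 reads in controls against 0, 20 and 0 (log2 fold change -0.96, SE 1.27), and Krt71 and Krt25 at most 17 and 4 reads.

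The hard hair keratins other than Krt85 stayed near or below 5 CPM in controls. Krt82 ranged from 3.84 to 4.89 CPM in controls and from 1.32 to 6.13 CPM in cKO libraries. Krt84 had 1.36, 0.854 and 1.48 against 0.614, 0.698 and 0.422 CPM, without overlap (log2 fold change -1.09, SE 0.486, adjusted p 0.282). Krt36 overlapped, with 1.39, 1.24 and 0.908 against 0.485, 0.523 and 1.34 CPM. So did Krt87, which had at most 0.699 CPM in any library and shares 36.9% of its words with other hair keratins or a pseudogene. Krt31, Krt32 and Krt34 had 0 reads in all controls and at most 1 in cKO replicates 1 and 2, against 26, 69 and 25 reads in cKO replicate 3. Taking 3 reads in a control library as the most that a count of 0 allows, cKO replicate 3 was at least 7.90-fold, 20.97-fold and 7.60-fold higher. Krt31 and Krt34 share 28.1% and 33.1% of their words with related hair keratins. Krt35, Krt39, Krt83 and Krt86 never exceeded 13 reads, nor the corneal keratin Krt12 10 reads.

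The other 4 keratins fell in no group. Krt42, a type I gene close in sequence to Krt17, had 5.15, 5.95 and 6.67 CPM in control and 11.9, 13.3 and 8.02 in cKO libraries. The groups did not overlap (log2 fold change 0.90, SE 0.271, adjusted p 0.138), DESeq2 called it (adjusted p 0.0254), and the log2 fold change was 1.10 without cKO replicate 3. Krt222, Krt90 and Krt88 overlapped between the groups, with log2 fold changes of -0.15, -0.01 and -0.30. Krt222 ranged from 3.79 to 6.24 CPM in controls and was lowest in cKO replicate 3 at 1.19 CPM, while Krt90 stood at 1.86 to 3.06 CPM and Krt88 at most at 0.472 CPM over all libraries.

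**Figure D3:**
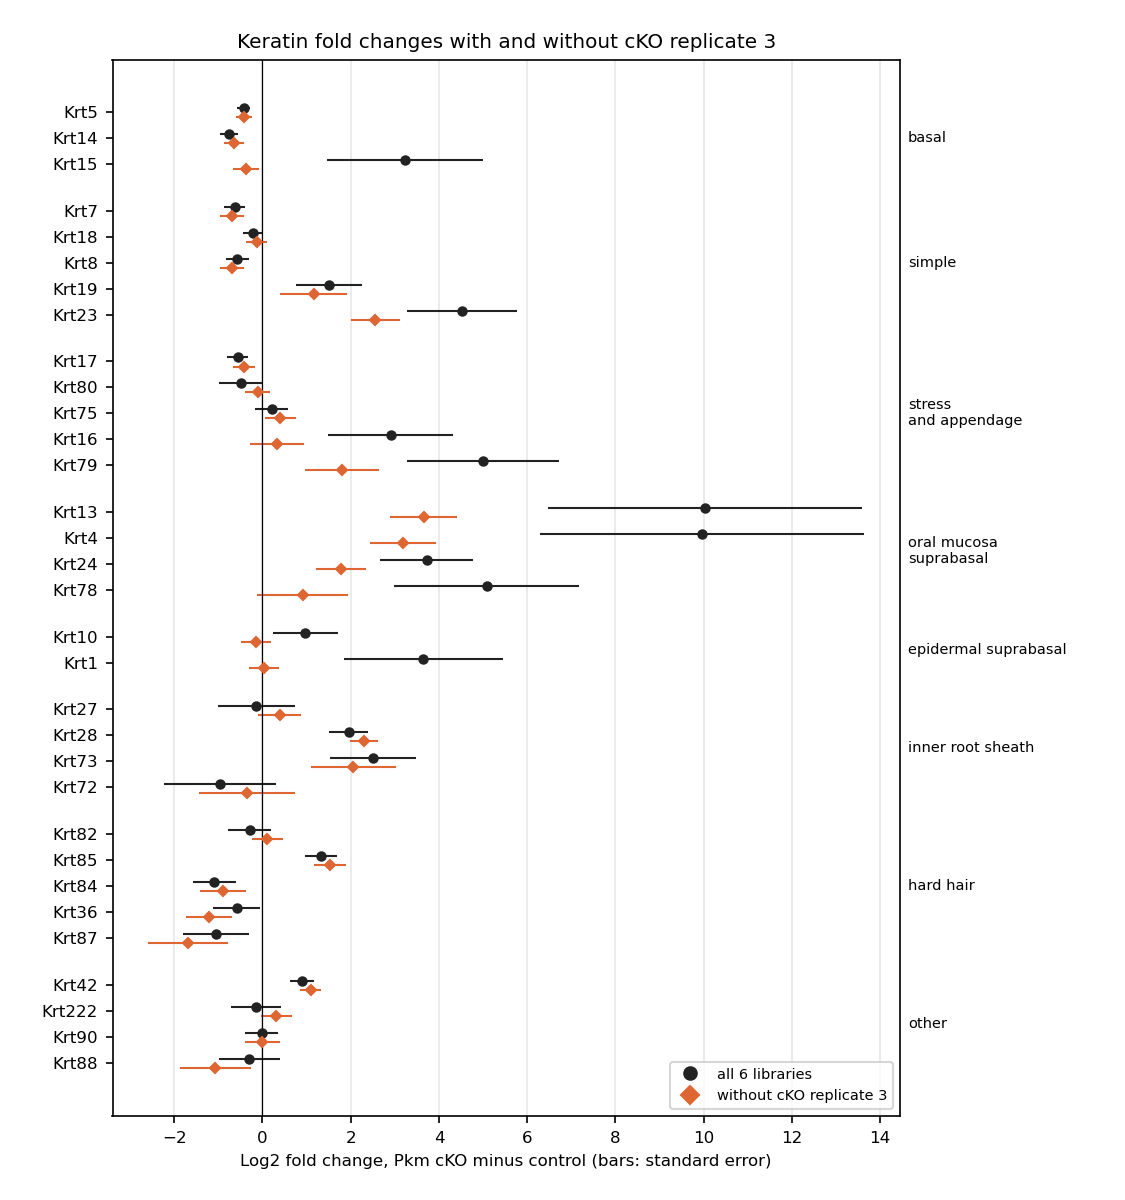
Log2 fold change of Pkm cKO over control (horizontal) for the 32 tested keratins by place of expression, with all 6 libraries (black circles) and without cKO replicate 3 (orange diamonds); bars are standard errors. Krt13 and Krt4 move from about 10 to 3.65 and 3.18, Krt1 and Krt10 to near 0, and Krt28 stays near 2.

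By library, cKO replicate 3 was the highest of all 6 for 13 of the 32 tested keratins, beside 23.9% of all tested genes, and the lowest for 6, beside 23.5%. It was at least 2-fold above every other library for 10 keratins, beside 3.28% of all genes, and at least 10-fold above for 6, beside 0.584%. Those 6 were Krt13, Krt4, Krt78, Krt1, Krt15 and Krt79. These shares describe 1 library and have no replicate.

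Other genes of stratified epithelium were read from lists. Of 21 cornified envelope and suprabasal differentiation genes in the table, 16 were tested, 14 had log2 fold changes above 0 and 0 passed (median 1.70). Without cKO replicate 3 the median was 0.74, with 12 of 16 above 0 and 1 called (0.77% of all genes were in that fit). It was Dsg1a, a desmosomal cadherin (log2 fold change -1.26, SE 0.204, adjusted p 0.0366). Dsg1a was lower in cKO replicates 1 and 2 at 30.7 and 27.8 CPM than in the controls at 71.9, 83.4 and 55.6 CPM, and cKO replicate 3 lay among the controls at 71.0 CPM. In cKO replicate 3, 11 of the 16 were at least 2-fold above every other library, beside 3.28% of all tested genes, and 7 at least 10-fold, beside 0.584%. Sprr1a, which encodes a cornified envelope precursor, had 0.109, 0.052 and 0.078 CPM in control and 0.646, 1.60 and 19.1 in cKO libraries (log2 fold change 6.43, SE 1.64, adjusted p 0.140). Without cKO replicate 3 its log2 fold change was 3.78 (SE 0.731, adjusted p 0.0532). Lypd3, a surface protein of suprabasal cells, had 38.5, 37.1 and 45.5 against 50.7, 131 and 137 CPM (log2 fold change 1.40, SE 0.348, adjusted p 0.112), so that here cKO replicates 2 and 3 were alike. Tgm1, the cross-linking enzyme of the envelope, had 27.7, 25.3 and 17.0 against 40.4, 40.6 and 37.6 CPM (log2 fold change 0.76, SE 0.206, adjusted p 0.112), nearly equal in the 3 cKO libraries. Tgm3, a related enzyme, stood at 0.300 to 0.777 CPM against 0.549, 1.28 and 13.2 CPM (log2 fold change 3.40, and 0.95 without cKO replicate 3).

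Partners of the keratin filament were read in the same way. Of 12 desmosomal and cytoskeletal linker genes, 11 were tested, 8 were above 0 and 0 passed (median 0.21). Dst, which ties keratins to hemidesmosomes at the basal membrane, had 1003, 863 and 630 CPM in control and 647, 384 and 350 in cKO libraries (log2 fold change -0.85, SE 0.259, adjusted p 0.144). Jup, plakoglobin of desmosomes, had 302, 324 and 332 against 271, 534 and 425 CPM (log2 fold change 0.36, SE 0.222, adjusted p 0.441). Tchh, trichohyalin of the inner root sheath and of filiform papillae, had 12.7, 22.1 and 19.6 against 26.8, 61.1 and 34.4 CPM (log2 fold change 1.17, SE 0.326, adjusted p 0.126). Pkp2, a desmosomal plakophilin, stayed under 0.5 CPM apart from 1.22 CPM in cKO replicate 3 (log2 fold change 1.49, and 0.29 without that library). The 2 tested keratins whose symbols end in a letter, which lie outside the rule, were Krt6a and Krt6b. Krt6a had 101, 126 and 129 CPM against 98.1, 342 and 676 CPM. Krt6b had 0.354, 0.492 and 0.467 CPM against 0.162, 1.80 and 11.2 CPM. Their log2 fold changes were 1.65 and 3.32, and 0.89 and 1.17 without cKO replicate 3.

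Of 15 regulators of epidermal and oral differentiation, 15 were tested, 9 were above 0 and 0 passed (median 0.03). Trp63, the transcription factor that maintains basal epithelial cells, had 496, 476 and 423 CPM in control and 375, 335 and 375 in cKO libraries (log2 fold change -0.36, SE 0.141, adjusted p 0.227), lower in all 3 cKO libraries like Krt5 and Krt14. Grhl1, a grainyhead factor of epithelial differentiation, had the lowest p of the list and was higher in all 3 cKO libraries, with 12.9, 13.05 and 18.9 against 20.7, 21.7 and 26.0 CPM (log2 fold change 0.61, SE 0.221, adjusted p 0.203). Zfp750, which promotes terminal differentiation, had 176, 183 and 126 against 59.9, 134 and 64.4 CPM (log2 fold change -0.91, SE 0.320, adjusted p 0.207). Ehf, an epithelial Ets factor, had 1.77, 3.18 and 1.74 against 1.65, 4.77 and 9.09 CPM. Its log2 fold change was 1.21, and 0.53 without cKO replicate 3. Of 9 tested non-keratin intermediate filament genes, 5 were above 0, 4 were higher without overlap, beside 11.2% of all tested genes, and 0 passed. These 4 were Lmna, Vim, Gfap and Des. Lmna, which encodes the nuclear lamins A and C, had 207, 220 and 255 against 270, 341 and 496 CPM (log2 fold change 0.70, SE 0.216, adjusted p 0.144). Gfap, a glial filament gene, stayed under 1 CPM in every library. Vim, vimentin of mesenchymal cells, had 557, 577 and 639 against 1060, 687 and 835 CPM. Des, desmin of muscle, reached 151 CPM in cKO replicate 3 against at most 8.79 CPM elsewhere. Its log2 fold change was 5.12, and 1.94 without that library.

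**Figure D4:**
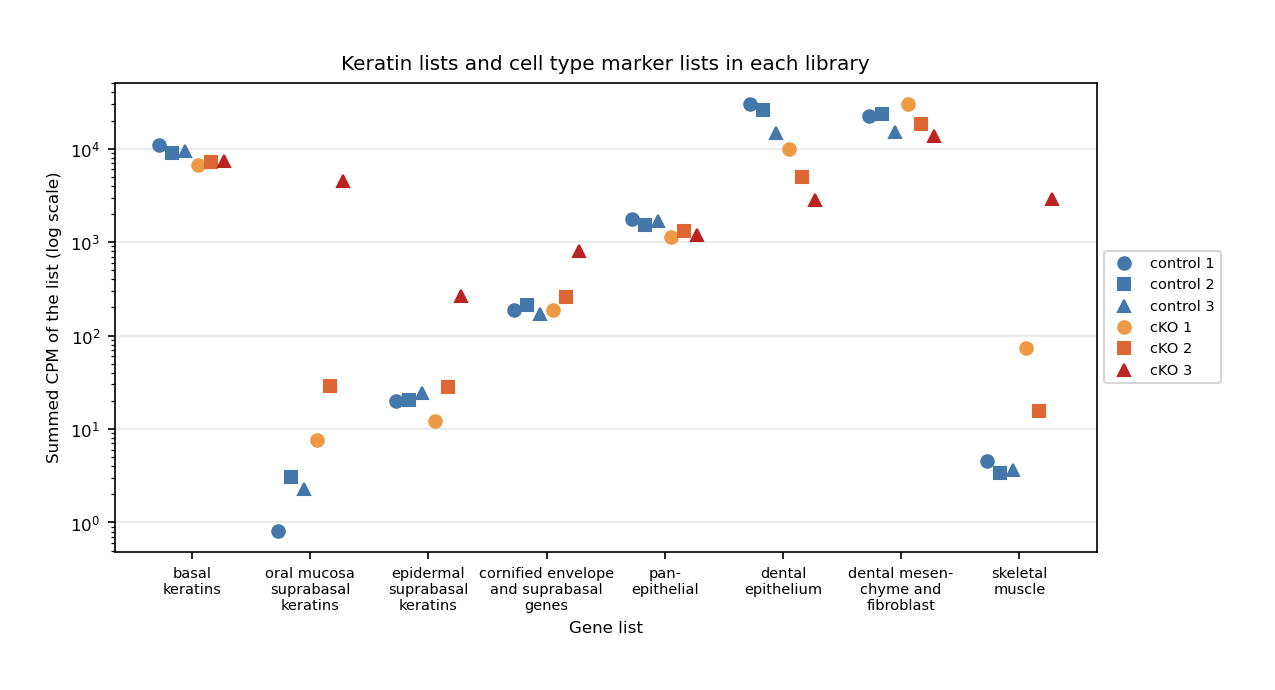
Summed CPM on a log scale (vertical) of 8 gene lists (horizontal), one symbol per library. In cKO replicate 3 the oral and epidermal suprabasal keratins, the cornified envelope genes and the skeletal muscle markers are highest and the dental epithelium markers lowest, while the basal keratins lie with the other cKO libraries.

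Markers of other tissues were read beside the oral keratins. The 12 dental epithelium markers summed to 14717 to 29942 CPM in controls and to 9924, 5032 and 2815 CPM in cKO replicates 1 to 3, the reverse of the order of Krt13. Amelx, the amelogenin gene of ameloblasts, led this list with 18617, 15596 and 8564 CPM in control and 4136, 343 and 122 in cKO libraries (log2 fold change -3.22, SE 1.56, adjusted p 0.387). Odam was the 1 member of 11 tested that passed edgeR's test, beside 0.552% of all tested genes. It had 443, 416 and 451 CPM in control and 216, 183 and 160 in cKO libraries (log2 fold change -1.23, SE 0.155, adjusted p 0.0312). Of the 11, 7 had log2 fold changes below 0 and 4 above. The 6 skeletal muscle markers, Acta1 and Myh3 among them, summed to 73.0, 15.4 and 2892 CPM in cKO libraries. All 6 were at least 10-fold above every other library in cKO replicate 3, as Krt13 and Krt4 were. Between the other 2 cKO libraries the orders differed, since muscle was higher in replicate 1 and Krt13 and Krt4 were higher in replicate 2. Endothelial markers summed to 554 CPM in cKO replicate 3 and to 282 to 352 CPM elsewhere. Merkel cell and taste bud markers, 5 of 7 matched and led by Piezo2, summed to 40.0 CPM in cKO replicate 3. They summed to 14.9 to 20.7 CPM elsewhere. Among them Isl1 had 75 reads in cKO replicate 3 and at most 1 in any other library, while Insm1 and Tas1r3 were not highest there. The macrophage sum ran from 47.0 to 51.5 CPM in the control group and from 93.8 to 142 in the cKO group. Of the 6 macrophage genes, all above 0, 1 passed edgeR's test. It was C1qc (log2 fold change 1.22, SE 0.214, adjusted p 0.0487). Only 3 of the 9 listed salivary gland markers were matched by symbol. They summed to at most 1.96 CPM in every library, most of it Bhlha15, while unmatched ones such as Smgc and Pip could not be read. The melanocyte markers, 3 of 4 matched, summed to at most 4.79 CPM. The hair follicle list, led by Tchh and Lgr6, summed to 54.3 to 69.7 CPM in control and 98.9 to 148 in cKO libraries, while Hoxc13, a factor of hair shaft formation, stood at 5.12 to 6.02 CPM in the former and at 3.58 to 8.08 CPM in the latter. The part of these tissues in the keratin values was not tested.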

How the data were processed

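RNA-seq libraries from 3 control and 3 Pkm cKO samples were analysed from the authors' deposited table of read counts, whole numbers for each gene. The tools fastp and HISAT2 and the genome build mm39 are named, per the submitters' processing notes. Neither versions, nor the counting program, its strand setting or the annotation is given in the sources used here. Reads of overlapping, antisense or near-identical genes therefore cannot be told apart: 10 of the 47 keratins overlap a gene on the opposite strand, and 12 of 46 share over 10% of their 50-base words with other transcripts (GENCODE M21, GRCm38, used for names, exon lengths and words).

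Groups and replicate numbers came from the titles, and columns were matched to them by name. All 6 count columns were used. Total counts were 30588350 to 39415700, so counting error was small for abundant keratins and not for those with few reads. No pair of libraries was a duplicate (chi-square per gene at least 26.5). The counts were filtered with filterByExpr, scaled by TMM and compared with edgeR's quasi-likelihood test (edgeR 4.0.16, R 4.3.3, robust, two-sided), Benjamini-Hochberg adjusted over 15930 genes with a threshold of 0.05. Standard errors (SE) were taken as the log2 fold change over the root of the F statistic. The biological coefficient of variation was 0.300. Levels between genes were compared per kilobase of exons.

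The members and lists were chosen with earlier results of these data known. Each tested keratin is named, others where a library held at least 10 reads, and of each pathway list up to 4 genes of lowest p and any called, with Dsg1a named for its call without 1 library. Of the listed genes outside the keratins, 14 were not matched by symbol. DESeq2 1.42.0, limma-voom (limma 3.58.1), other scalings and filters, a replicate block and leaving out each library were alternatives, and limma-voom with sample quality weights and epithelial markers without Cdh1 were chosen after seeing the data. The edgeR procedure was tested on simulated counts in which no library stood apart, so that test does not cover a library like cKO replicate 3.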

Additional observations from a re-analysis of the deposited data

How the results depend on the processing

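The number of keratins called was 0 in edgeR's test, also with DESeq2 size factors, upper-quartile scaling, a filter of 1 CPM in 3 samples, limma-voom, or edgeR without robust estimation. It was 1 of 47 without a filter beyond 1 read (Krt14) and 7 of 32 with DESeq2, which gave no adjusted p for 9 keratins. It was 1 of 32 with sample quality weights in limma-voom (Krt28), and 0 to 5 of 32 or 33 when each library was left out. Of all 15930 tested genes 88 were called, 55 with DESeq2 size factors, 1118 with DESeq2 and 2 with limma-voom. Of the same 15930, 2 were called without robust estimation and 230 with quality weights. Without the filter 518 of 24959 genes were called. When each library was left out, 0 to 640 were called of 16230 to 16489 genes. With upper-quartile scaling the 75 calls were 57 higher and 18 lower, against 55 and 33. With the replicate number as a block 708 of 15930 genes and 2 of 32 keratins (Krt23 and Krt14) were called. Same-numbered libraries correlated in their deviations from the group means at 0.235, 0.0150 and 0.215, and different-numbered ones at -0.278 to 0.0703. The labels state no pairing, so the main test used none. Whether same-numbered libraries are pairs was not tested further. The suprabasal median was 6.83 with the 1 CPM filter, which leaves fewer genes, and 1.35 to 5.23 when each library was left out. The basal and simple median stayed between -0.45 and -0.21 there. Leaving out each library turned the direction of Krt15 (-0.37 to 3.78), Krt10 (-0.14 to 1.42), Krt82 (-0.95 to 0.11), Krt27 (-1.37 to 0.39), Krt222 (-0.85 to 0.32), Krt75 (-0.37 to 0.45) and Krt90 (-0.19 to 0.16). Krt90 also turned with upper-quartile scaling (0.029), the 1 CPM filter (0.0025), limma-voom (0.0026) and quality weights (0.090). Pkm was not called without control replicate 1, 2 or 3 (adjusted p 0.0792, 0.0600 and 0.0790). The cKO mean over the control mean of the ratio of Krt5 to epithelial markers was 1.015, and 0.717 without Cdh1. For these turns the cause was not tested.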
